A study of Mus musculus with 20 samples.

Results

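Jun, Junb, Jund, Fos, Fosb, Fosl1, Fosl2, Atf3, Egr1 and Ier3 are AP-1 or immediate early genes, 8 of which code for subunits of AP-1 or close relatives. They were followed in the colon of 20 mice, as 10 of the 32991 annotated genes in the deposited tables. A gene's level is the sum of its Ensembl transcripts in FPKM, fragments per kilobase of transcript with every library scaled to the same number of mapped fragments, which puts genes of different length on 1 scale. The 10 genes were chosen from measured values of these same mice, and Jun is also a gene the study picked out on them. Their levels and differences are therefore descriptions, and where the number of them past a threshold is given it is read as support for nothing. The study asked how PZH, Pien Tze Huang, a remedy of Chinese medicine swallowed daily, affects colorectal cancer arising from chemically induced colitis.

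The male C57BL/6 mice formed 4 groups of 5, with 1 library per mouse. Control mice received double distilled water by gavage for 91 days, and PZH mice received 250 mg/kg of PZH each day over the same time. Model mice received the water plus azoxymethane (AOM), a carcinogen, at 12.5 mg/kg into the peritoneum on the opening day. They then drank 2% dextran sodium sulfate (DSS), which injures the colon lining, for 5 days starting 7 days later, with plain water between the 4 cycles. Model + PZH mice received AOM, DSS and PZH together. The age of the mice was not given in the sources used here, and the 20 mouse numbers differ, so no mouse pairs with another. In the results, values follow mouse number, which is 17, 37, 41, 48 and 50 for Control, 8, 14, 27, 46 and 53 for PZH, 23, 30, 33, 44 and 52 for Model, and 2, 13, 15, 35 and 36 for Model + PZH.

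AP-1 is a dimer of leucine zipper proteins. The Jun proteins Jun, Junb and Jund pair with each other or with the Fos proteins Fos, Fosb, Fosl1 and Fosl2, and the dimers bind short DNA sites near growth, matrix and inflammation genes. Atf3 is a related, stress-induced zipper protein that can pair with Jun, often as a repressor. Egr1 is a zinc finger factor switched on by the same growth factor signals, and Ier3 is a small stress-induced protein of survival signalling and an NF-κB target. Immediate early genes respond within minutes to growth factors, injury, cytokines or handling through MAP kinases and SRF, need no new protein synthesis, and their mRNAs are short-lived. Intestinal AP-1 is best known for work on Jun in wound repair and in tumours of the gut.

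Some libraries stood apart, and values without them are given where they change a result. Estimated depth per mouse ranged from 15300000 to 19400000 fragments. Control mice 17 and 50 carried 5 markers of squamous epithelium, such as Krt5 and Krt14, at a summed 299 and 249 FPKM, against 0.325 to 57.9 FPKM in the other mice. Mouse 35 of Model + PZH had the highest summed neutrophil markers of its group, 267 FPKM against 5.07 to 88.6 FPKM in the other 4. The colon label held, since 8 colon epithelium markers summed to 1610 to 6110 FPKM, although Epcam was listed at 0 in every Control mouse, as a failed estimate can be. Summed neutrophil markers ranged from 0.188 to 30.3 FPKM in Control and from 97.7 to 538 FPKM in Model, and of the 5 markers the 4 that could be tested were higher in Model, while S100a9 was listed at 0 in every PZH mouse. Summed smooth muscle markers ranged from 2240 to 5170 FPKM in Control and from 996 to 1730 FPKM in Model, and all 6 were lower in Model. In whole colon, fewer cells of a type and less RNA per cell cannot be told apart. The part of this cell makeup in the results was not tested.

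The stretch just upstream of the start site is shown for 5 genes. They were taken because Jun with Ier3 and Atf3 with Fosb had the most alike levels among the 10 genes. Fos was added as the classical immediate early gene. RefSeq promoters on GRCm38.p6 were found for 8 of the 10 genes. Each line gives the 250 bases before the RefSeq start, 5′ to 3′ on the gene's strand, with motif matches in capitals. The motifs, searched on both strands, were TGACTCA and TGACGTCA, the classical AP-1 and CREB/ATF sites, their half-site TGACG, the variant TGACATCA, TATAAA, the CArG box bound by SRF and the NF-κB consensus.
Jun: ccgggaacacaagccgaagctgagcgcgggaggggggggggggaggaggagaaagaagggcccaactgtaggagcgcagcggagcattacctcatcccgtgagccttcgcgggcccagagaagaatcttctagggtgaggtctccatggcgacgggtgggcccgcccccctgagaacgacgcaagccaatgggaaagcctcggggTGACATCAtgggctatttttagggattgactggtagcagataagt
Ier3: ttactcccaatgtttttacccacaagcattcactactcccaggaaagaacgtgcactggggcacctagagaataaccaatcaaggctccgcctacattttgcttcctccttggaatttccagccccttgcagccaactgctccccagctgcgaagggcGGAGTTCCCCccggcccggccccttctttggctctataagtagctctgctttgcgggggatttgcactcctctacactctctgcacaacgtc
Atf3: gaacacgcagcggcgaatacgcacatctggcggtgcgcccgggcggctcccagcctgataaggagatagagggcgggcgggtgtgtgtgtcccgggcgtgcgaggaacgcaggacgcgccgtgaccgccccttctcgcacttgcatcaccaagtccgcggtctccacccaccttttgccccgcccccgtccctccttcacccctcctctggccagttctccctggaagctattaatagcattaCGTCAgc
Fosb: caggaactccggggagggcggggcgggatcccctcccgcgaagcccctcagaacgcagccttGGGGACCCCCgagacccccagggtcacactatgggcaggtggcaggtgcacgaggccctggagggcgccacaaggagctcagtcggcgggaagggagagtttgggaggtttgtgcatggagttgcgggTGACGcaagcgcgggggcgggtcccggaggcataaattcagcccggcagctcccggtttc
Fos: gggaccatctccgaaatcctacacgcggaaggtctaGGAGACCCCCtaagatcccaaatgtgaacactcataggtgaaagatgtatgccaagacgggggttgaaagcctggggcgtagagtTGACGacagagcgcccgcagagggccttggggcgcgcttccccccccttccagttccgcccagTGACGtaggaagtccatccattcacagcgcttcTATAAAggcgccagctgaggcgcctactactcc
The windows are chr4:95052223-95052472 for Jun, chr17:35821463-35821712 for Ier3, chr1:191183334-191183583 for Atf3, chr7:19310046-19310295 for Fosb and chr12:85473640-85473889 for Fos, with Jun, Atf3 and Fosb on the minus strand.

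Jun held TGACATCA at 45 to 38 bases before the start, a variant found in 2.93% of the 32851 promoters of the table. Ier3 held 1 NF-κB consensus match on the reverse strand, as did 7.25% of promoters on either strand. Atf3 held the half-site on the reverse strand right before its start and Fosb held it once, as did 17.8% of promoters. Fosb also matched the NF-κB consensus, in a run that reads as a match on both strands. Fos held the half-site 2 times, a TATAAA (12.4% of promoters) and 1 NF-κB consensus match. TGACTCA (4.46% of promoters), TGACGTCA (1.55%) and the CArG box (1.47%) had no match in these 8 windows, which says only that these letters are not in them. The GC content of the 8 windows ranged from 47.6% in Jund to 68.8% in Fosb, against a median of 52.4% over all promoters. The Jund window, chr8:70697489-70697738, ends well upstream of the Ensembl start of Jund at chr8:70698949. It is therefore not the stretch just before that start, and its GC content and lack of matches hold for this window only.

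Among the AP-1 subunits, Jund was the most abundant in every group and the Fos family genes Fosb and Fosl1 the least. The 7 Jun and Fos genes summed to 558.5 ± 101 FPKM (SD, n = 5) in Control, 494 ± 89.8 in PZH, 498.5 ± 69.4 in Model and 494 ± 86.9 in Model + PZH. The summed level thus differed between groups by less than the spread among mice, while the makeup of the sum differed. Jun made up 5.88% ± 0.519 of it in Control and 15.8% ± 3.03 in Model, ranges of 5.15% to 6.55% and 13.9% to 21.1% that do not overlap. In Model + PZH the share of Jun was 7.98% ± 4.10, with 15.1% in mouse 35. Jund made up 57.4% ± 8.35 in Control and 47.4% ± 2.25 in Model, with overlapping ranges.

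Jun lies at chr4:95049034-95052222 on GRCm38, minus strand, and its 1 transcript is a single exon. Jun measured 41.8, 28.2, 34.3, 32.1 and 27.1 FPKM in Control. In PZH, Jun was at 28.6, 33.7, 25.9, 17.3 and 26.7 FPKM. The Model mice showed 66.3, 69.3, 56.8, 119 and 89.2 FPKM of Jun. Every Model mouse was above every Control and PZH mouse. For Model + PZH the values of Jun were 26.6, 26.1, 35.2, 95.6 and 25.3 FPKM. Mouse 35 lay within the Model range, and the other 4 lay below every Model mouse. The mean of Model was 80.1 ± 24.7 FPKM against 32.7 ± 5.85 in Control (SD, n = 5), a ratio of 2.45 and a log2 fold change of 1.23 (SE 0.20) on log2(FPKM + 1), the scale of every fold change given here. Model + PZH against Model gave −1.09 (SE 0.35) with mouse 35 and −1.43 (SE 0.21) without it. The antisense gene Junos overlaps Jun and was listed at 0.577 to 3.67 FPKM.

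Junb, at chr8:84974484-84978718 on the minus strand, is the Jun protein most often tied to restraint of Jun. Junb in Control stood at 150.2, 53, 65.7, 95.8 and 83.9 FPKM. PZH mice had Junb at 88.2, 102, 96.2, 80.9 and 56.6 FPKM. Junb measured 105, 82.9, 76.7, 105 and 123 FPKM in Model. These 3 groups overlapped widely. In Model + PZH, Junb was at 93.6, 42.5, 89.5, 140.4 and 57.6 FPKM. The log2 fold changes ranged from −0.31 (SE 0.29) in Model + PZH vs Model to 0.21 (SE 0.25) in Model vs Control, about the size of their errors. Prdx2, which overlaps Junb on the opposite strand, was listed at 104 to 175 FPKM.

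Jund, at chr8:70698949-70700616 on the plus strand, is the most evenly expressed Jun gene in most tissues. The Control mice showed 332, 307, 279.7, 319 and 333 FPKM of Jund. For Model the values of Jund were 218, 239, 199.8, 254 and 266 FPKM. The Model mice were below every Control mouse, at 236 ± 26.9 FPKM against 314 ± 22.1, a log2 fold change of −0.42 (SE 0.10) that was −0.36 (SE 0.12) without Control mice 17 and 50. Jund in PZH stood at 284, 374, 287, 251 and 231 FPKM. Model + PZH mice had Jund at 304, 306, 222, 260.5 and 219.5 FPKM. Both of these groups spanned the gap between Control and Model.

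Fos, at chr12:85473890-85477273 on the plus strand, codes for the most studied Fos protein, and 95.2% of its FPKM came from the transcript Fos-201. Fos measured 146, 37.3, 94.5, 66.8 and 29.3 FPKM in Control. In PZH, Fos was at 30.7, 71.5, 97.3, 50.4 and 38.9 FPKM. The Model mice showed 47.3, 34.5, 28.2, 32.2 and 47.1 FPKM of Fos. Control mice differed among themselves more than Model mice, with a coefficient of variation of 63.3% against 23.3%. For Model + PZH the values of Fos were 51.2, 34.8, 83.2, 72.8 and 62.6 FPKM. Of these 5 mice, 4 were above every Model mouse, and the log2 fold change was 0.64 (SE 0.24) in Model + PZH vs Model and −0.76 (SE 0.39) in Model vs Control.

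Fosb, at chr7:19302696-19310051 on the minus strand, codes for a Fos protein with a long-lived short form. Fosb in Control stood at 9.21, 5.43, 3.98, 0.857 and 2.73 FPKM. Model mice had Fosb at 1.04, 1.301, 1.45, 1.87 and 1.09 FPKM. In Model no mouse was above 1.87 FPKM, while Control ranged widely and overlapped it. Fosb measured 0.782, 1.81, 2.84, 1.82 and 1.31 FPKM in PZH. In Model + PZH, Fosb was at 6.42, 1.73, 6.43, 5.31 and 2.89 FPKM. In Model + PZH 4 of the 5 mice were above every Model mouse. The mean was 4.56 ± 2.14 FPKM in Model + PZH and 1.35 ± 0.334 in Model, a ratio of 3.38 and a log2 fold change of 1.15 (SE 0.28). Model vs Control gave −1.01 (SE 0.37), which was −0.74 (SE 0.36) without Control mice 17 and 50. Fosb-201 carried 56.0% of the FPKM, and 48 to 470 estimated fragments stood behind each mouse's value.

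Fosl1, at chr19:5447547-5455946 on the plus strand, codes for Fra-1, known from invasive tumour cells, and was the lowest of the 10 genes on the per-length scale in Control, PZH and Model + PZH. The Control mice showed 0.895, 0.809, 1.296, 2.39 and 1.03 FPKM of Fosl1. For PZH the values of Fosl1 were 0.659, 0.676, 0.576, 0.781 and 0.602 FPKM. Fosl1 in Model stood at 2.46, 2.42, 2.499, 2.998 and 2.103 FPKM. The PZH mice lay below every Control mouse, and 4 of the 5 Model mice lay above every Control mouse. Model + PZH mice had Fosl1 at 2.02, 2.09, 3.72, 3.86 and 0.717 FPKM. The log2 fold change was 0.65 (SE 0.17) in Model vs Control and −0.42 (SE 0.16) in PZH vs Control, and 17 to 126 estimated fragments stood behind each value. Without Control mice 17 and 50 these were 0.53 (SE 0.20) and −0.54 (SE 0.19). Ccdc85b, which overlaps Fosl1 on the opposite strand, was listed at 21.4 to 49.7 FPKM.

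Fosl2, at chr5:32135801-32157842 on the plus strand, codes for Fra-2. Fosl2 measured 47.7, 27.01, 44.1, 38.5 and 49.1 FPKM in Control. In PZH, Fosl2 was at 45.5, 33.3, 38.6, 31.8 and 36.8 FPKM. The Model mice showed 37.8, 48.2, 37.7, 47.3 and 41.8 FPKM of Fosl2. Every pair of these groups overlapped. For Model + PZH the values of Fosl2 were 34.3, 29.4, 28.4, 52.7 and 38.6 FPKM. The log2 fold changes lay between −0.24 (SE 0.17) in Model + PZH vs Model and 0.07 (SE 0.16) in Model vs Control, and the latter became −0.05 when the mice were scaled by median of ratios.

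Atf3, at chr1:191170296-191218039 on the minus strand, was low in Model, where Jun was high. Atf3 in Control stood at 36.98, 23.7, 26.3, 21.1 and 17.8 FPKM. PZH mice had Atf3 at 7.04, 9.97, 16.04, 18.1 and 7.01 FPKM. Atf3 measured 9.77, 10.1, 15.4, 13.6 and 10.7 FPKM in Model. Every Model mouse lay below every Control mouse, and 4 of the 5 PZH mice did too. In Model + PZH, Atf3 was at 40.2, 22.2, 33.1, 23.3 and 26.1 FPKM. Every Model + PZH mouse lay above every Model mouse and 4 of the 5 lay within the range of Control. The means were 25.2 ± 7.31 FPKM in Control, 11.6 ± 5.15 in PZH, 11.9 ± 2.47 in Model and 29.0 ± 7.56 in Model + PZH (SD, n = 5). The log2 fold change was −1.0 (SE 0.19) in Model vs Control, −1.11 (SE 0.28) in PZH vs Control and 1.20 (SE 0.19) in Model + PZH vs Model. Without Control mice 17 and 50 the values against Control were −0.95 (SE 0.17) and −1.06 (SE 0.31), and without mouse 35 the value against Model was 1.26 (SE 0.20).

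Egr1, at chr18:34859823-34864984 on the plus strand, varied widely within groups. The Control mice showed 17.6, 4.73, 13.99, 8.98 and 1.73 FPKM of Egr1. For PZH the values of Egr1 were 3.18, 7.83, 8.98, 8.698 and 2.62 FPKM. Egr1 in Model stood at 7.18, 5.34, 3.78, 7.58 and 11.3 FPKM. The ranges of these groups overlapped. Model + PZH mice had Egr1 at 24.3, 4.31, 34.6, 12.9 and 4.804 FPKM. In Model + PZH 3 of the 5 mice were above every Model mouse, and the coefficient of variation was 80.9%. The log2 fold change against Model was 0.78 (SE 0.52), and it was 0.42 without Model + PZH mouse 15 and 0.54 without mouse 2.

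Ier3, at chr17:35821684-35822923 on the plus strand, had the widest gap of the 10 genes between Model and Control on the log2 scale. Ier3 measured 14.6, 5.97, 5.72, 8.19 and 12.9 FPKM in Control. In PZH, Ier3 was at 7.66, 9.94, 9.33, 8.22 and 7.396 FPKM. The Model mice showed 52.1, 35.4, 26.7, 56.4 and 62.9 FPKM of Ier3. Every Model mouse was above every Control and PZH mouse. For Model + PZH the values of Ier3 were 15.9, 8.57, 25.8, 59.4 and 14.9 FPKM. Mouse 35 was again at the Model level, and the other 4 lay below the lowest Model mouse. The Model mean was 46.7 ± 15.1 FPKM against 9.47 ± 4.06 in Control, a ratio of 4.93 and a log2 fold change of 2.21 (SE 0.30), which was 2.59 (SE 0.28) without Control mice 17 and 50. Model + PZH vs Model gave −1.11 (SE 0.44) with mouse 35 and −1.49 (SE 0.32) without it.

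**Figure D1:**
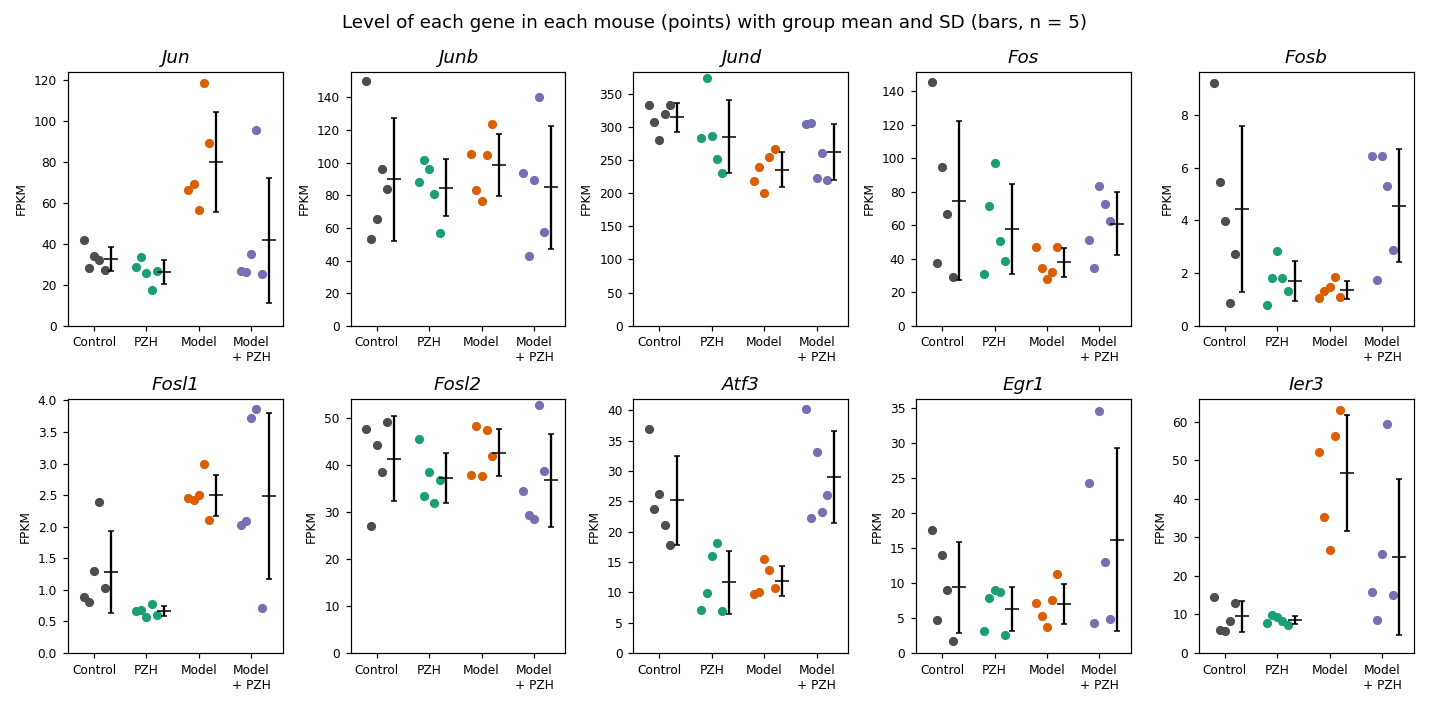
Level of each gene in FPKM (linear axis from 0) in each mouse (points, by group) with the group mean and SD (bars beside the points, n = 5). Jun and Ier3 are highest in Model with mouse 35 of Model + PZH at 95.6 and 59.4 FPKM, whereas Atf3 is at 9.77 to 15.4 FPKM in Model and 22.2 to 40.2 FPKM in Model + PZH.

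When the 4 group means of each gene were put in order, 2 of the 30 pairs of neighbours did not overlap, namely Control above PZH for Fosl1 and Control above Model for Atf3, against 1.67% of such pairs over all genes tested. The other 28 pairs of neighbours overlapped, which says only that their ranges meet and does not test the difference. For Jun and Ier3, Model and Model + PZH overlapped through mouse 35 alone. Jun, Ier3, Junb, Fosl1 and Fosl2 had their highest mean in Model, Atf3, Fosb and Egr1 in Model + PZH, and Jund and Fos in Control.

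Model was compared with Control to ask what AOM and DSS did. Ier3, Jun and Fosl1 were higher in Model, with 1 Model mouse of Fosl1 within the Control range, Atf3 and Jund were lower, and Junb, Fosl2, Egr1, Fos and Fosb had overlapping groups. In limma's moderated test with Benjamini-Hochberg adjustment over all genes, these 5 of the 10 genes passed an adjusted P of 0.05, 3 higher and 2 lower, against 23.6% of the 15812 genes tested. Since the 10 genes were chosen on these mice, nothing is read from that count. Without Control mice 17 and 50, 3 passed (Jun, Ier3 and Atf3), against 17.8% of genes. The study's criteria, a fold above 2 with an unadjusted P under 0.05, were set on transcripts with DESeq. In this report they are applied to the limma fit of summed genes on log2(FPKM + 1). By them 2 genes were higher (Jun and Ier3; 5.85% of genes) and 1 lower (Fosb; 1.86%). Atf3 missed the fold on that scale, although its mean in Control was 2.11 times that in Model. The groups did not overlap with Model higher for 2 genes, Jun and Ier3 (13% of genes) and with Model lower for 2, Atf3 and Jund (5.43%). The median log2 fold change was −0.04 over the 10 genes and 0.09 over all genes tested, and the latter was 0.15 with each mouse scaled to an equal sum and 0.01 with median of ratios.

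The partners and neighbours of the 10 genes in the pathway were also run through limma. They were not used to choose the 10 genes, but their lists were drawn up with earlier results of these mice known. The share of a list that passed is therefore a description, in this and every later comparison, and shows no enrichment. Of 124 genes tested in 5 lists, 36 were higher and 10 lower in Model, 37.1% in all, against 23.6% of all genes. Of 18 genes with well-known AP-1 sites, 12 rose and 0 fell (66.7%), with a median log2 fold change of 1.13. The matrix-degrading protease Mmp10 rose from 0.353 ± 0.141 to 62.3 ± 30.5 FPKM (log2 fold change 5.41, SE 0.30, limma adjusted P = 1.93e-06). Mmp13, a collagenase, rose from 1.38 ± 0.595 to 40.8 ± 26.3 FPKM (3.99, SE 0.33, adjusted P = 2.38e-05) and Mmp9, a gelatinase of neutrophils among other cells, from 0.979 ± 0.495 to 17.1 ± 6.23 FPKM (3.17, SE 0.25, adjusted P = 2.03e-05). Timp1, a protease inhibitor, rose by 2.33 (SE 0.30, adjusted P = 0.000443) and the cytokine Il11 by 2.3 (SE 0.31, adjusted P = 0.00059). The neutrophil markers given above moved with them, and their part in this was not tested.

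Other immediate early genes went both ways, with 8 of 33 higher and 5 lower, a share of 39.4% against 23.6% of all genes. Socs3, the feedback inhibitor of STAT3 signalling, rose from 5.58 ± 2.62 to 33.4 ± 8.62 FPKM (log2 fold change 2.45, SE 0.28, limma adjusted P = 0.000178) and Ptgs2, which makes prostaglandins, from 1.75 ± 0.496 to 7.99 ± 5.14 FPKM (1.55, SE 0.34, adjusted P = 0.00772). The differentiation factor Klf4 fell from 241 ± 38.5 to 98.6 ± 28.9 FPKM (−1.32, SE 0.20, adjusted P = 0.00128). The kinase gene Plk3 (−1.16, SE 0.26, adjusted P = 0.00831) and the survival gene Mcl1 (−0.56, SE 0.11, adjusted P = 0.00425) fell as well.

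Upstream, 5 of 34 kinase, Ras and SRF/TCF genes were higher and 3 lower, a share of 23.5%, near the 23.6% of all genes. Elk3, an SRF partner, rose by 1.31 (SE 0.16, limma adjusted P = 0.000312), Nras by 1.07 (SE 0.20, adjusted P = 0.00394), the p38 kinase gene Mapk11 by 0.70 (SE 0.12, adjusted P = 0.00213) and Map3k1 by 0.56 (SE 0.12, adjusted P = 0.00782). Another p38 gene, Mapk13, fell from 187 ± 28.6 to 80.5 ± 29.0 FPKM (−1.26, SE 0.22, adjusted P = 0.00243). Among 19 feedback inhibitors 5 were higher and 2 lower, a share of 36.8% against the same 23.6%. The MAP kinase phosphatase gene Dusp4 rose from 3.43 ± 0.871 to 25.1 ± 6.22 FPKM (2.54, SE 0.20, adjusted P = 1.61e-05) and Dusp7 by 0.63 (SE 0.11, adjusted P = 0.00303). Rasa1, a Ras GTPase activator, rose by 0.33 (SE 0.11, adjusted P = 0.0453), whereas the EGF receptor inhibitor Errfi1 (−0.65, SE 0.15, adjusted P = 0.0119) and Spry2 (−0.58, SE 0.16, adjusted P = 0.0243) fell.

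Of 20 other bZIP genes, which code for possible zipper partners, 6 rose and 0 fell. Among all genes 23.6% passed in either direction. Cebpb, an inflammation factor, rose by 1.01 (SE 0.23, limma adjusted P = 0.00897), the cAMP-responsive Crem by 0.87 (SE 0.16, adjusted P = 0.0032) and the Jun dimerization gene Jdp2 by 0.53 (SE 0.13, adjusted P = 0.0154). Of 10 heat shock genes 0 were higher and 1 lower, Hspa1a, at 4.99 ± 1.10 FPKM in Model and 10.3 ± 4.95 in Control. This too stands against the 23.6% of all genes, and nothing is read from the count of either list.

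**Figure D2:**
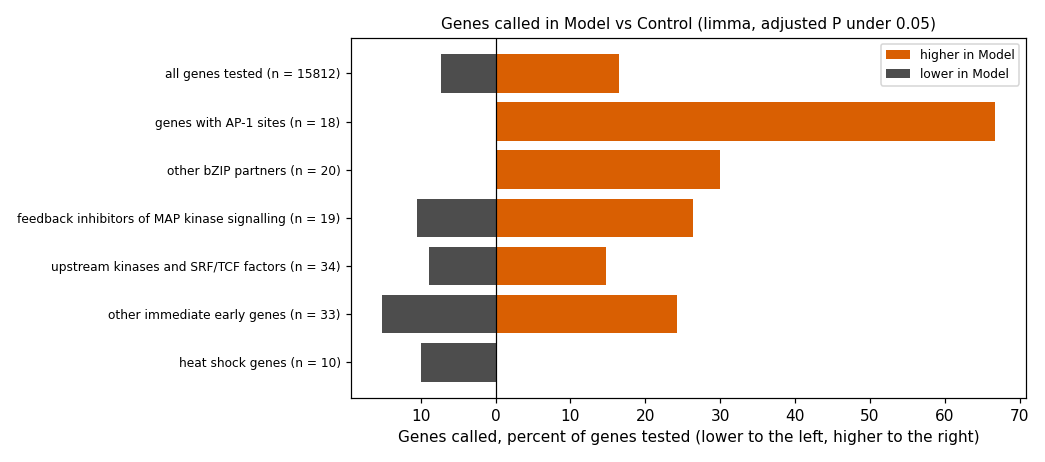
Share of the genes tested in each list (n beside the name) that passed limma's adjusted P of 0.05 in Model vs Control, with higher genes to the right and lower genes to the left in percent. Of the 18 genes with AP-1 sites 66.7% were called, against 23.6% of all genes. Of all genes called, 69.4% were higher, a split that was 55.0% with median of ratios scaling. The lists were drawn up with earlier results of these mice known, so these shares are descriptions.

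PZH was compared with Control to ask what the medicine did in an uninjured colon. All 10 genes had a mean below Control, from −0.02 for Junb to −1.11 for Atf3 on the log2 scale, with a median of −0.28 against 0.01 over all genes. The sign of the smaller differences rested on single mice and on scaling. Without Control mouse 17 the median was −0.1, with Junb, Fos and Ier3 at 0.19, 0.05 and 0.11, and without Control mice 17 and 50 it was −0.24, with Junb, Ier3 and Fosl2 at 0.26, 0.32 and 0.04. With each mouse scaled to an equal sum, Junb and Ier3 moved to 0.05 and 0.01. In limma 0 of the 10 genes passed the adjusted threshold, against 0.00645% of the 15506 genes tested, and 2 had an unadjusted P under 0.05, as did 8.84% of all genes. By the study's criteria 1 gene was lower (Atf3; 0.322% of genes) and 0 were higher (0.368%). The groups did not overlap for 1 gene with PZH lower (Fosl1; 0.896%) and 0 with PZH higher (0.909%).

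Of the 119 pathway genes tested in PZH vs Control, 0 passed limma's adjusted threshold. An unadjusted P under 0.05 was found for 21, all 21 of them lower in PZH. Over all genes 8.84% had such a P, 697 lower and 673 higher. Without Control mice 17 and 50 it was 17 of 119 pathway genes (14.3%), 16 lower and 1 higher. Over all genes it was then 7.0%, 575 lower and 515 higher. Summed smooth muscle markers ranged from 1040 to 2410 FPKM in PZH and from 2240 to 5170 FPKM in Control, and their part in these differences was not tested. Of the 21, 12 were among the 30 other immediate early genes tested. Nr4a1, a nuclear receptor induced with Fos and Jun, was at 3.91 ± 1.65 FPKM in PZH and 13.6 ± 5.31 in Control (log2 fold change −1.54, SE 0.32, limma adjusted P = 0.378). Maff, a small Maf protein, was at 4.65 ± 1.11 and 8.22 ± 1.41 FPKM (−0.72, SE 0.18, adjusted P = 0.413). Among the feedback inhibitors Errfi1 had −0.88 (SE 0.19, adjusted P = 0.378) and Dusp1, a phosphatase of JNK and p38, −0.96 (SE 0.23, adjusted P = 0.413). Srf had −0.29 (SE 0.11, adjusted P = 0.539), Mapk13 −0.40 (SE 0.17, adjusted P = 0.545), Crem −0.50 (SE 0.16, adjusted P = 0.512) and Mafk −0.32 (SE 0.14, adjusted P = 0.546). The urokinase receptor gene Plaur had −0.40 (SE 0.11, adjusted P = 0.437) and Mmp13 0.45 (SE 0.24, adjusted P = 0.62). None of these differences passed the test. Of the heat shock genes 0 of 10 passed and 4 had an unadjusted P under 0.05, all 4 lower in PZH, against 8.84% of all genes.

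**Figure D3:**
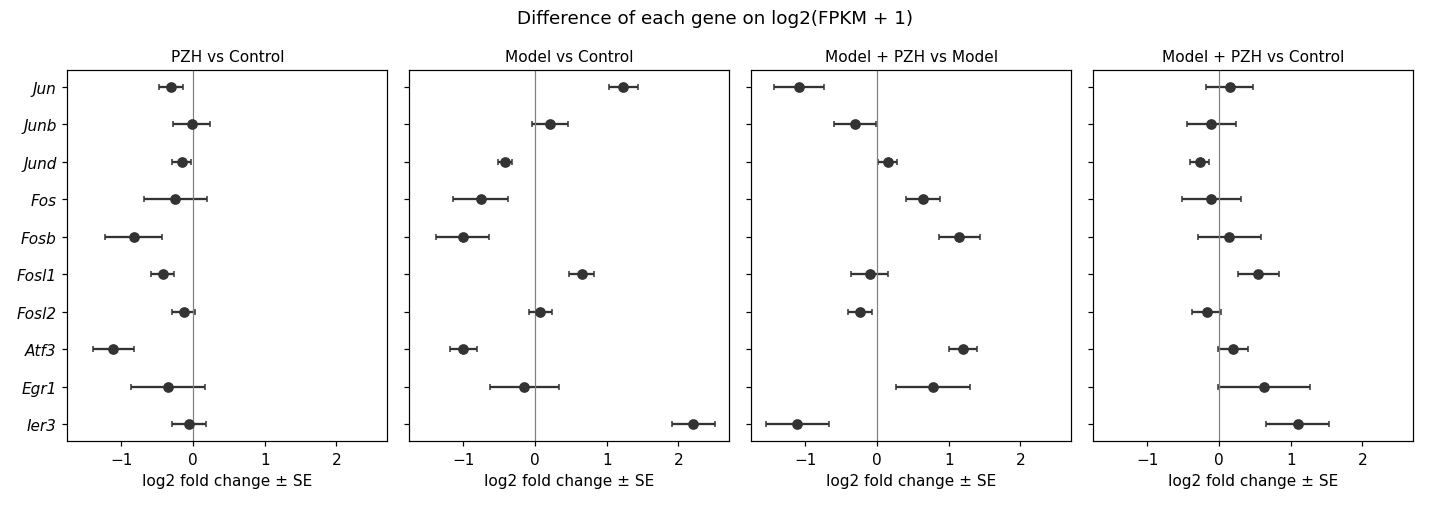
Log2 fold change with its standard error (x axis, log2(FPKM + 1) scale) of each of the 10 genes (rows) in the 4 comparisons, 5 mice a group. Jun and Ier3 lie right of 0 in Model vs Control (1.23 and 2.21) and left of 0 in Model + PZH vs Model (−1.09 and −1.11), and Atf3 and Fosb lie the other way round (−1.0 and −1.01, then 1.20 and 1.15).

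Model + PZH was compared with Model to ask what the medicine did in the injured colon. Atf3, Fosb, Egr1 and Fos had higher means in Model + PZH, with log2 fold changes of 1.20, 1.15, 0.78 and 0.64. Jun and Ier3 had lower means, with −1.09 and −1.11, while Jund, Fosl1, Fosl2 and Junb lay between −0.31 and 0.15. This comparison shares the Model mice with that of Model vs Control, so the values of one are not independent of the other. In limma 0 of the 10 genes passed the adjusted threshold, against 0.00629% of the 15888 genes tested, and 5 had an unadjusted P under 0.05, as did 11.7% of all genes. By the study's criteria 2 were higher (Atf3 and Fosb; 0.39% of genes) and 2 lower (Jun and Ier3; 2.01%). The groups did not overlap for 1 gene with Model + PZH higher (Atf3; 0.403%) and for 0 with Model + PZH lower (0.673%). Without mouse 35, 3 of the 10 genes (Jun, Ier3 and Atf3) passed the adjusted threshold, against 5.17% of genes, and since they were chosen on these mice nothing is read from it. With mouse 35 included, the median log2 fold change of the 10 genes was 0.03, against −0.04 over all genes.

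Of 125 pathway genes, 0 passed limma's adjusted threshold in Model + PZH vs Model, and 29 had an unadjusted P under 0.05, 11 higher and 18 lower. Over all genes 1862 of 15888 had such a P (11.7%), 557 higher and 1305 lower, so most were lower there too. For Mmp10, Mmp13, Dusp4 and Elk3, mouse 35 lay far above the rest of its group, so leaving it out by itself favours calls of these genes. Without mouse 35 the share of all genes that passed was 5.17%, and 11 pathway genes passed, a count from which nothing is read. Of these, 9 were lower in Model + PZH, namely Mmp10 (log2 fold change −3.11, SE 0.68, limma adjusted P = 0.0325), Mmp13, Mmp9, Hmox1, Plaur, Dusp4, Elk3, Gadd45b and Gadd45g, and 2 were higher, namely Plk3 and Batf2. Summed neutrophil markers, at 97.7 to 538 FPKM in Model, were at 5.07 to 88.6 FPKM in these 4 Model + PZH mice, and their part in this was not tested. With mouse 35, Mmp10 was at 23.4 ± 33.4 FPKM in Model + PZH and 62.3 ± 30.5 in Model (−2.38, SE 0.88, adjusted P = 0.367), and Dusp4 at 12.2 ± 11.3 and 25.1 ± 6.22 FPKM (−1.25, SE 0.41, adjusted P = 0.356). The heme oxygenase gene Hmox1 had −1.08 (SE 0.30, adjusted P = 0.356), Dusp16 −1.15 (SE 0.30, adjusted P = 0.356) and Nras −0.65 (SE 0.25, adjusted P = 0.377). Plk3 was at 14.3 ± 4.51 and 7.74 ± 0.408 FPKM (0.76, SE 0.18, adjusted P = 0.356), the interferon factor Irf1 had 0.56 (SE 0.17, adjusted P = 0.356), Mapk13 0.84 (SE 0.24, adjusted P = 0.356) and the AP-1 inhibitor Batf2 0.90 (SE 0.24, adjusted P = 0.356). The stress factor Atf6 had 2.27 (SE 0.81, adjusted P = 0.362), at 13.1 ± 0.919 FPKM in Model + PZH and 5.22 ± 7.12 in Model. Model values ran from 0.0161 to 13.2 FPKM. The lowest values in Control and PZH were 0.0181 and 0.0179 FPKM. Estimates may have failed at such values, so the fold change of Atf6 may rest on them.

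Model + PZH was also set against Control. By the study's criteria 1 of the 10 genes was higher (Ier3, log2 fold change 1.10, SE 0.44; 2.47% of genes) and 0 were lower (1.06%), and in limma 0 passed the adjusted threshold, against 2.42% of the 15616 genes tested, with 1 at an unadjusted P under 0.05, as were 20.9% of all genes. Without mouse 35 the difference of Ier3 was 0.72 (SE 0.34). Atf3 had 0.20 (SE 0.21), Jun 0.15 (SE 0.33) and Fosb 0.14 (SE 0.44). Of 123 pathway genes 3 rose, the AP-1 site genes Timp1 (1.46, SE 0.25, limma adjusted P = 0.0205) and Mmp3 (1.3, SE 0.29, adjusted P = 0.0439) and the phosphatase gene Dusp7 (0.65, SE 0.14, adjusted P = 0.042). That share of 2.44% is near the 2.42% of all genes, and 0 passed with no filter, with the most abundant transcript alone or without Control mice 17 and 50. Socs3 (1.51, SE 0.41, adjusted P = 0.0794), the NF-κB inhibitor Tnfaip3 (1.04, SE 0.29, adjusted P = 0.0819), Map3k1 (0.42, SE 0.13, adjusted P = 0.109) and Mapk8 (0.42, SE 0.17, adjusted P = 0.19) did not pass. Cebpb (0.68, SE 0.20, adjusted P = 0.0916) and Atf4 (0.49, SE 0.16, adjusted P = 0.111) did not pass either.

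The difference made by PZH in AOM/DSS mice was then set against the difference it made in uninjured mice, as an interaction over the 20 mice. Atf3 had the widest gap of the 10 genes, 2.3 (SE 0.35) on the log2 scale, since it was lower with PZH in uninjured mice and higher with PZH in AOM/DSS mice. Fosb followed with 1.98 (SE 0.51), and Jun and Ier3 had −0.77 (SE 0.42) and −1.05 (SE 0.53). Atf3 was 1 of 2 genes that passed limma's adjusted threshold, against 0.0129% of the 15551 genes tested, the other being the zinc finger gene Zfat, and since Atf3 was chosen on these mice nothing is read from it. That call was lost with a pseudocount of 0.1, with no filter, with the most abundant transcript alone, without Control mice 17 and 50, and in 16 of the 20 fits that left out 1 mouse. Without mouse 35, 10 pathway genes and Atf3 passed, against 1.62% of genes.

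Of 123 pathway genes 0 passed the interaction in limma over the 20 mice, and 27 had an unadjusted P under 0.05, as did 9.63% of all genes. Nr4a1 had 2.48 (SE 0.51, limma adjusted P = 0.272), Errfi1 1.37 (SE 0.27, adjusted P = 0.197), Mapk13 1.24 (SE 0.30, adjusted P = 0.416), Batf2 1.06 (SE 0.30, adjusted P = 0.424) and the pseudokinase gene Trib1 1.05 (SE 0.25, adjusted P = 0.416). Spry2 had 0.65 (SE 0.20, adjusted P = 0.424), Map2k3 0.38 (SE 0.15, adjusted P = 0.461) and Mafk 0.37 (SE 0.18, adjusted P = 0.516). Mmp13 and Mmp10 had −2.21 (SE 0.77, adjusted P = 0.439) and −2.44 (SE 0.95, adjusted P = 0.451). Without mouse 35, Nr4a1, Errfi1, Mapk13, Batf2, Plk3 and Klf4 passed in the direction of Atf3, and Mmp10, Mmp13, Dusp4 and Elk3 in the direction of Jun. Mouse 35 lay far above the rest of its group for Mmp10, Mmp13, Dusp4 and Elk3, so leaving it out favours these calls too.

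**Figure D4:**
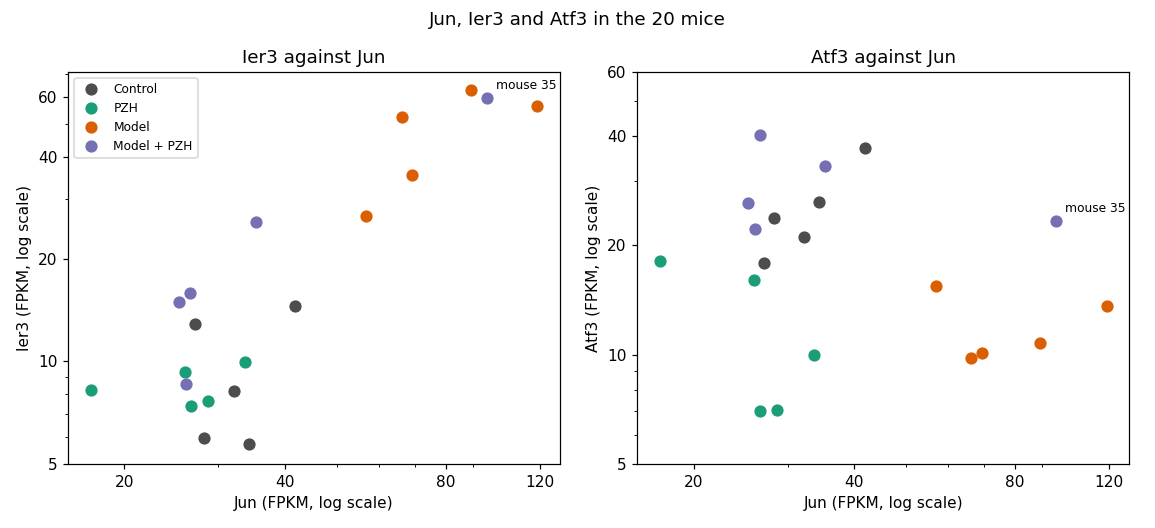
Ier3 (left) and Atf3 (right) against Jun in FPKM on log axes, with 1 point a mouse coloured by group. Mouse 35 of Model + PZH, with Jun at 95.6 FPKM, lies among the Model mice for Ier3 (59.4 FPKM) but above them for Atf3 (23.3 FPKM).

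Some of the 10 genes had alike levels across the mice. Over the 20 mice the Pearson r of log2 levels was 0.88 between Jun and Ier3, 0.822 between Fosb and Atf3, and 0.707 between Fos and Egr1. It was −0.225 between Jun and Atf3. Genes outside the 10 were more alike to Jun (Aif1l, 0.949), Ier3 (Alox12, 0.972), Atf3 (Errfi1, 0.867) and Egr1 (Hbegf, 0.843). For Fosb and Fos the highest outside the 10 were Nr4a1 (0.726) and Wnk4 (0.703). The likeness of Jun and Ier3 is thus not particular to them. These values are descriptions, and mice of a group share their treatment. After subtracting group means, r was 0.855 for Junb with Ier3, 0.78 for Fos with Egr1, 0.76 for Jun with Ier3 and 0.656 for Fosb with Atf3. In some mice most of the genes lay to 1 side of the group mean. In Control mouse 17, PZH mouse 27, Model mouse 44 and Model + PZH mouse 35, 9 of the 10 genes were above it. In Control mouse 37, PZH mouse 53 and Model + PZH mouse 13, 1 was. Whether all genes shifted likewise in these libraries was not tested. Control mouse 17 also stood apart by its squamous markers, and mouse 35 by its neutrophil markers. Of the 14130 other genes with a mean of at least 1 FPKM, those most like the mean standardized profile of the 10 genes over the 20 mice were Dusp1 (r = 0.757), Fxr1 (0.755), the stress phosphatase subunit gene Ppp1r15a (0.748), the EGF receptor ligand gene Hbegf (0.747) and Klf10 (0.737).

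The genes also shared a low number of exons. In the most abundant transcript all 10 had at most 4 exons, as did 25.6% of 13084 protein-coding genes with a transcript of at least 0.5 FPKM, and Jun, Junb and Jund had 1 exon, as did 3.23%. The median gene span was 4.7 kb against 22.7 kb, although Atf3 spanned 47744 bases and Fosl2 22042 bases. ATTTA, the core of the AU-rich elements of short-lived mRNAs, occurred at least 3 times after the stop codon in 5 of the 10, against 33.5% of 12218 genes. Ier3 had 5 within 613 bases and Fos 4 within 815 bases, whereas Fosb had 1 within 2145 bases.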

How the data were processed

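RNA-seq libraries of colon from 20 mice were examined. The authors filtered reads with NGSQC v2.3.3, aligned them to mm10 with HISAT2 v2.1.0 and quantified transcripts with StringTie v1.3.3b. The deposited values were FPKM for 118434 transcripts per mouse, of which 22252 were assembled by the authors, carry no gene name and were left out. The labels describe rRNA depletion, and 1 label protocol names the abdominal aorta where all others name colon. Whether counting used the strand was not given in the sources used here.

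Of 96182 Ensembl transcripts, 96032 matched GENCODE M21 and were summed over 32991 genes. The files hold no counts. Depth was estimated from the step between low values, on whole multiples of which 40.5% to 45.2% of low values fell (tolerance 0.01 of a step). It is approximate, so no count test was run, and fragment numbers are estimates that cover counting error only. Within groups, mice shared at most 0.629% identical values over 14140 genes.

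Genes at 0.5 FPKM or above in at least 5 of the 10 mice compared (10 of 20 for the interaction) were tested with limma v3.58.1 in R v4.3.3 on log2(FPKM + 1), with a variance trend, the mice of the groups compared and Benjamini-Hochberg adjustment over all genes, and called at an adjusted P under 0.05. The alternatives were median of ratios scaling, scaling to an equal sum, a pseudocount of 0.1, no filter, a filter of 1 FPKM, all 20 mice in 1 model, the most abundant transcript alone, and leaving out each mouse. The fit was tested on simulated data.

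The 10 genes and every list were chosen with earlier results of these data known. All 10 genes passed the filter in each comparison and are named with each mouse's value. From each pathway list, up to 5 called genes without overlap and with the largest fold changes are named or, where none was called, the 2 with the lowest P, and genes called without mouse 35 were named after their values were seen. A gene that this rule names is not reported here.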

Additional observations from a re-analysis of the deposited data

Results flagged for a closer look

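Of 140 group values checked (5 mice each), 9 had a mouse far from the other 4, where chance gives about 7. In Model + PZH, mouse 35 was such a mouse for Jun (95.6 FPKM), Dusp4 (32.1 FPKM), Elk3 (14.9 FPKM), Mmp10 (81.9 FPKM) and Mmp13 (51.8 FPKM), each time as the highest of its group. It also had the group's highest summed neutrophil markers, 267 FPKM, and their part in these values was not tested. Model mouse 23, with the highest summed neutrophil markers of all mice (538 FPKM), was the highest of its group for Mmp13 (86.2 FPKM), Mmp3 (54.3 FPKM) and Timp1 (31.4 FPKM). Control mouse 37 was the highest of its group for Mmp10, at 0.604 FPKM.

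Of the genes whose difference between PZH and no PZH had opposite signs in AOM/DSS mice and in uninjured mice, 9 are given here. Atf3, with an interaction of 2.3 on the log2 scale, passed in limma, but it was chosen on these mice. For all 9, every treated mouse lay to 1 side of its untreated group's mean in AOM/DSS mice and to the other side in uninjured mice. The share of all genes that do so is not given here, so nothing is read from this count. Fosb differed by 1.98, Plk3 by 1.54 (limma adjusted P = 0.416), Errfi1 by 1.37 (adjusted P = 0.197), Mapk13 by 1.24 (adjusted P = 0.416), Batf2 by 1.06 (adjusted P = 0.424), Trib1 by 1.05 (adjusted P = 0.416), Spry2 by 0.65 (adjusted P = 0.424) and Klf6, a growth-restraining zinc finger gene, by 0.63 (adjusted P = 0.424), and these 7 pathway genes missed the adjusted threshold.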

How the results depend on the processing

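The count of pathway genes called in Model vs Control (46) was 33 to 39 when 1 mouse was left out and stayed within 1.5 times under the other settings. In Model + PZH vs Model the count of 0 became 11 without mouse 35 (0 to 11 over single mice left out), and in the interaction 0 became 10 (0 to 10). In Model + PZH vs Control the count of 3 was 5 with each mouse scaled to an equal sum, 0 with no filter, 16 with all 20 mice in 1 model, 0 with the most abundant transcript alone, 0 without both Control mice with squamous markers, a setting chosen after seeing the data, and 0 to 5 with single mice left out: the causes were not tested. PZH vs Control gave 0 under every setting run. The median log2 fold change of the 10 genes moved by less than the spread between mice in 71 of 71 alternatives, although in PZH vs Control it ran from −0.41 to −0.10 with single mice left out, and the fold changes of single genes did so in 976 of 979. The exceptions were Fosl1 in PZH vs Control (−0.77) and Model vs Control (1.00) and Fosb in the interaction (2.63) with a pseudocount of 0.1, which changes low genes most. For the named pathway genes 50 of 1213 alternatives lost the call, 13 gained it and 0 reversed it. No paired analysis was possible because the groups share no mouse number. Depth limits Fosl1 most, with as few as 17 estimated fragments.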
